A study of Rattus norvegicus with 6 samples.

Results

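The genes described here encode the subunits of the mitochondrial respiratory chain and the ATP synthase, sorted by complex and by the genome that carries them. They were chosen by symbol from a table of 32623 rat genes: names beginning Nduf (for subunit series A, B, C, S and V), Sdha to Sdhd, Uqcr, Cyc1, Cox4 to Cox8 and Atp5, and the genes of the mitochondrial chromosome for subunits of complexes I, III, IV and V. Of 102 protein-coding rows with such names, 4 were second rows of a symbol, and the row with the highest mean was kept. This left 98 genes, 85 nuclear and 13 mitochondrial. The names also take in a few genes that are no subunits: Atp5if1, the inhibitor of ATP synthase, Cox7a2l, a factor of respiratory supercomplexes, and Cox6c-ps1, which the table names as a pseudogene. Ndufa4 and its paralogue Ndufa4l2 were placed in complex IV, where the former is found as a subunit.

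The series holds 6 RNA-sequencing libraries of primary ventricular cardiomyocytes from newborn Sprague-Dawley rats (postnatal day 1 to 3). Of these, 3 came from cells given a non-targeting small interfering RNA (siNC) and 3 from cells given one against Mettl3 (siMettl3), which encodes the catalytic subunit of the methyltransferase that writes m6A on messenger RNA. Every culture received its small interfering RNA for 24 h and then lipopolysaccharide (LPS, bacterial endotoxin) for 6 h, so both groups carry the LPS treatment and no value below is a response to it. All cultures were drawn from 1 pooled isolate of several rats, and p-values therefore measure only the spread between these cultures, which may be technical.

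The respiratory chain passes electrons from NADH (complex I) and succinate (complex II) through complexes III and IV to oxygen, and the proton gradient that this builds drives ATP synthase (complex V). Complexes I, III, IV and V each join subunits from both genomes: the nuclear ones are imported as proteins, while those of the mitochondrial genome are transcribed and translated inside the organelle, and complex II is wholly nuclear. Heart muscle is among the tissues richest in these proteins, and it carries muscle forms of several complex IV subunits.

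Nuclear respiratory genes are known for a shared set of promoter elements, and the promoters of 4 genes are shown because the comparison below turns on them: Ndufc2, the member that fell; Ndufc1, its partner subunit in the membrane arm of complex I, which did not; and Cox4i1 and Atp5mg, the most abundant nuclear gene of complex IV and the nuclear complex V gene with the lowest fold change. Each window is RefSeq sequence of build GRCr8, 5′ to 3′ on the gene's own strand, from 250 bases before to 50 bases after the annotated start. Capitals mark matches, on either strand, to the elements searched. These were NRF1 (GCATGCGC), ETS, the core bound by GABP (CCGGAAG), ERR (AAGGTCA) and YY1 (AAGATGGC). The windows are chr1:161122940-161123239 on the plus strand (Ndufc2), chr2:137601686-137601985 on the minus strand (Ndufc1), chr19:65630133-65630432 on the plus strand (Cox4i1) and chr8:54130358-54130657 on the minus strand (Atp5mg).
Ndufc2: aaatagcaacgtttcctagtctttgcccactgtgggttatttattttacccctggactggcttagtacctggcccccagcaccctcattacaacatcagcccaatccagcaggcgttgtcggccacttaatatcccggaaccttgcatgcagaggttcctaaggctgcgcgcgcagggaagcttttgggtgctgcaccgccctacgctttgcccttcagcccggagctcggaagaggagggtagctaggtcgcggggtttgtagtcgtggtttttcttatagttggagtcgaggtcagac
Ndufc1: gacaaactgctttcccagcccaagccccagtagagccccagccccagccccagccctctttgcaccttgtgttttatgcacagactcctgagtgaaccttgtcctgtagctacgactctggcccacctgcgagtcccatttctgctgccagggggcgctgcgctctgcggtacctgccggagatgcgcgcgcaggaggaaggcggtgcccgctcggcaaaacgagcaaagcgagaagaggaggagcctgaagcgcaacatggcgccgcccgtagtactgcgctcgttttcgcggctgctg
Cox4i1: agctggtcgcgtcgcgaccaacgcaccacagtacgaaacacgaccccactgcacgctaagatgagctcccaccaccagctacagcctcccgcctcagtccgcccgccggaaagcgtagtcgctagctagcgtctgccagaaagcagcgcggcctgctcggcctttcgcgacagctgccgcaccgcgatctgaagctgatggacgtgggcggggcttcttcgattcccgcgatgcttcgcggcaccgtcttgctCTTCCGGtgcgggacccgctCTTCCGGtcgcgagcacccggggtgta
Atp5mg: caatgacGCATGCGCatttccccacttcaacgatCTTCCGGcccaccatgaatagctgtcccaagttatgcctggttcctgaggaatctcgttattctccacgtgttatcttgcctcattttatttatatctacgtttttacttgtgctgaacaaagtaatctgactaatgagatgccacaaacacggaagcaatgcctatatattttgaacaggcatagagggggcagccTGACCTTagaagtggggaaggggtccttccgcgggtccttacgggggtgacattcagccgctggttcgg
The window of Cox4i1 held 2 ETS matches, both on the opposite strand just past the start. That of Atp5mg held NRF1, ETS and ERR matches, the ERR match 19 bases before the start. None of the 4 element strings occurred in the windows of Ndufc2 and Ndufc1.

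Of the 85 nuclear genes, 73 were matched to a RefSeq promoter window. ETS matches lay in 27.4% of the 73, against 9.22% of all 27457 windows of the same length. YY1 matches lay in 20.5% against 3.44%, ERR in 13.7% against 4.37%, and NRF1 in 12.3% against 2.66%. At least 1 of the 4 strings lay in 38 of the 73 windows, and in 4953 of all windows. A match describes letters only. Among the matched genes that were tested, the 36 with a match had a median log2 fold change of -0.07 and the 33 without a match had the same rounded value. For ERR alone it was -0.10 in the 10 genes with a match and -0.06 in the 59 without. For YY1 it was -0.06 in 14 with and -0.08 in 55 without. For ETS both were -0.07, and for NRF1 they were -0.06 (8 with) and -0.07 (61 without). These differences were not tested.

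The libraries held 71202469 to 76668751 counts, and Mettl3 itself went from 16.9 ± 1.47 to 10.3 ± 0.355 FPKM (SD, n = 3; limma adjusted p = 0.00661). FPKM is a level per transcript length and per library size, and the test was made on log2(FPKM + 1) with limma for 13105 genes whose mean over the libraries reached 1 FPKM. Across these genes the median log2 fold change (siMettl3 minus siNC) was 0.07 by limma and 0.00 by edgeR, which rescales the libraries. Limma called 856 genes higher and 576 lower, and edgeR 444 and 864. Fibroblast markers were lower (5 of 8 tested, summed level 1485 to 1555 FPKM in siNC and 907 to 965 in siMettl3), as were 4 of 6 smooth muscle markers (3715 to 4216 and 2491 to 2702) and 5 of 6 macrophage markers (70.1 to 86.2 and 36.3 to 47.4). Of 3 endothelial markers tested 2 were higher (11.2 to 12.7 and 14.3 to 15.8 FPKM for all 5 found), and of 3 erythroid markers 1, Hbb, was (90.0 to 131 and 145 to 213.2 for all 4 found), though not by edgeR (adjusted p = 0.0575) and in only 1 of 6 fits with a library left out. None of the 9 cardiomyocyte markers was called by limma (15000 to 16760 FPKM summed in siNC, 13620 to 15620 in siMettl3), and 2 were called lower by edgeR. Of the markers called by limma besides Hbb, Col1a1, Col3a1, Postn, Fbln2, Cnn1 and C1qb passed in all 6 fits with a library left out. Acta2, C1qa and Lyz2 passed in 4, Myh11 in 3, Cdh5, Cd68 and Adgre1 in 2, Tagln in 1, and Lum and Tek in 0. None of the marker genes found had a count of 0 in every library. In bulk RNA, fewer cells of a type and less RNA per cell cannot be told apart, and the part of these shifts in the results below was not tested.

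Of the 98 genes, 93 passed the level filter, 80 nuclear and all 13 mitochondrial. The 5 others were alternative forms of subunits and a pseudogene. Cox7a1, the muscle form of subunit 7a, had only 9 to 27 counts per library in these cells of newborn rats. Ndufa4l2 had 45 to 67 and Cox7b2 had 0 to 3. Cox8c and Cox6c-ps1 had none, which allows up to 3 counts in a library (counting error only). Among the tested nuclear genes the mean level ranged from 2.93 FPKM (Cox4i2) to 1544 FPKM (Atp5f1b), with a median of 183 FPKM against 10.2 FPKM for all tested genes. The 13 mitochondrial genes ranged from 2100 to 35950 FPKM. Together the 80 nuclear genes took 1.59% to 1.96% of all counts in a library and the 13 mitochondrial genes 11.5% to 12.8%.

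**Figure D1:**
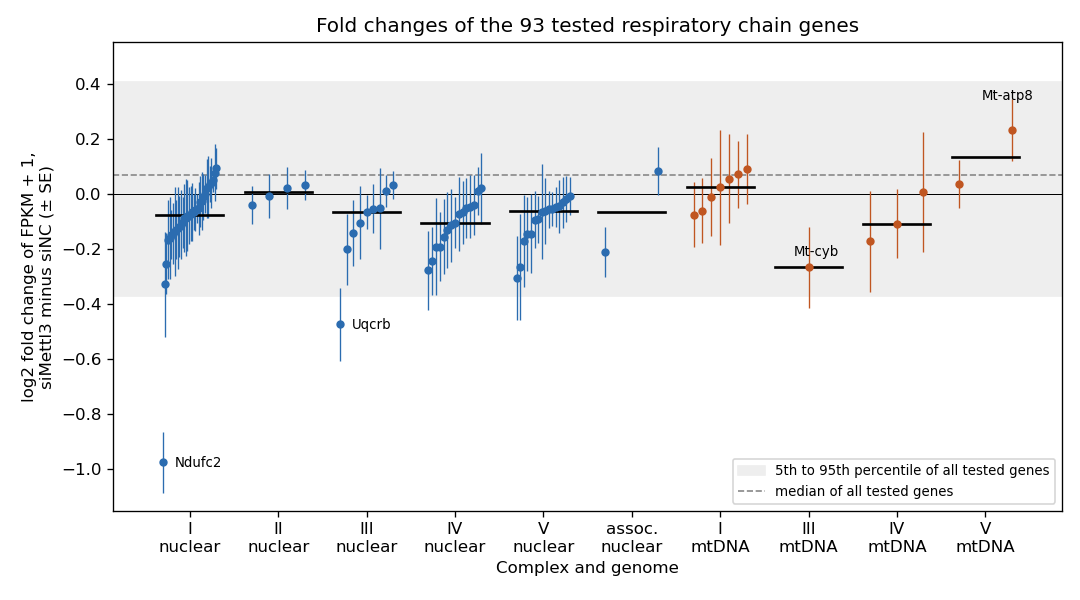
Each point is 1 of the 93 tested genes, placed by complex and genome (mtDNA is the mitochondrial genome; "assoc." holds Cox7a2l and Atp5if1). The vertical axis is the log2 fold change of FPKM + 1, siMettl3 minus siNC, with limma's SE. Thick bars are class medians, the band runs from -0.37 to 0.41 (5th to 95th percentile of all tested genes), and the dashed line is the median of all tested genes. Ndufc2 at -0.98 lies far below the other genes of complex I.

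Between siMettl3 and siNC cells 1 respiratory chain gene fell, to 50.7% of its control level: Ndufc2, a subunit of the membrane arm of complex I. Limma called 1 of 93 genes, where it called 10.9% of all tested genes in either direction and 4.4% as lower. By edgeR, which called 9.98% of all tested genes, 3 of the 93 were lower: Ndufc2, Uqcrb and Mt-cyb. At an unadjusted p under 0.05 limma had 2 of the 93, Ndufc2 and Uqcrb, against 4119 of all 13105 genes. The groups of libraries did not overlap for 5 of 93 genes (Ndufc2, Uqcrb and Mt-cyb lower, Mt-atp8 and Ndufs1 higher), against 37.9% of all tested genes. For 84 of the 93 genes the 95% interval of the fold change lay within 1.5-fold of no change in either direction, and for 92 it lay within 2-fold, the exception being Ndufc2. Of all tested genes 10689 and 12586 lay within these limits.

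Ndufc2 measured 105, 114 and 102 FPKM in the siNC libraries and 59.96, 45.1 and 58.1 FPKM in the siMettl3 libraries. Every siMettl3 library lay below every siNC library, and the siMettl3 mean of 54.4 ± 8.08 FPKM was 50.7% of the siNC mean of 107.2 ± 6.46 FPKM (SD, n = 3). Limma's log2 fold change was -0.98 (SE 0.112, adjusted p = 0.00695), which is a ratio of 0.423 to 0.612 in the 95% interval. By edgeR it was -1.05 (adjusted p = 0.00472). The counts behind these values were 4193 to 4931 per siNC library and 1936 to 2559 per siMettl3 library. The call held without any 1 of the libraries (limma adjusted p from 0.00636 to 0.0385), but not with the replicate number as a block (0.0822), a fit in which 6 of all 13105 genes passed.

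The other 33 nuclear genes of complex I served as a scale within each library. Ndufc2 stood at 78.7%, 79.3% and 85.5% of their median level in the siNC libraries and at 44.4%, 43.1% and 43.6% in the siMettl3 libraries. On this scale the means were 81.2% ± 3.8 and 43.7% ± 0.635 (SD, n = 3), and the siMettl3 libraries lay close together. Ndufc1, encoded elsewhere and joined to Ndufc2 in the same module of the membrane arm, measured 36.0, 39.7 and 33.7 FPKM in siNC and 36.9, 38.5 and 41.3 FPKM in siMettl3 (log2 fold change 0.09, SE 0.0748, adjusted p = 0.431). Ndufc2 was therefore 289% to 303% of Ndufc1 in siNC and 117% to 163% in siMettl3, 2 ranges that did not overlap.

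**Figure D2:**
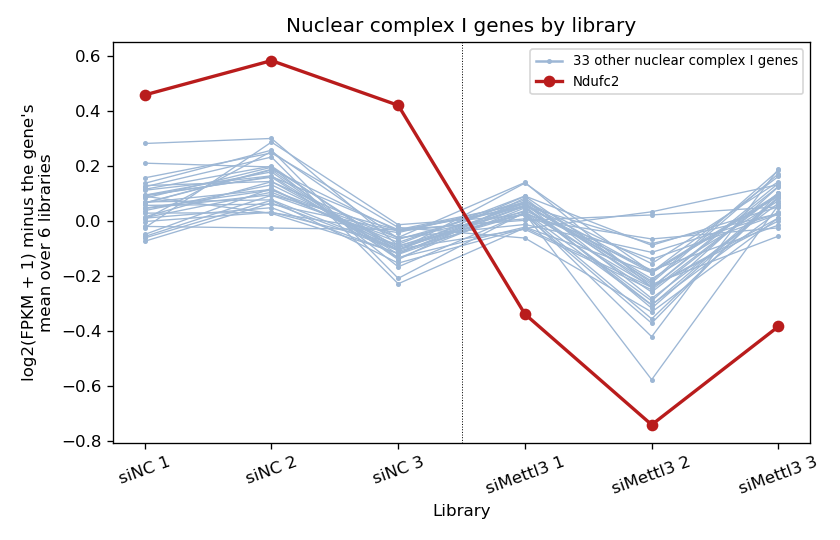
Lines give log2(FPKM + 1) of each tested nuclear complex I gene in the 6 libraries, as the difference from that gene's own mean (lines only join the values of 1 gene). Ndufc2 is in red and the 33 other genes are in blue. Ndufc2 drops from siNC to siMettl3, while the others share a high position in siNC 2 and a low one in siMettl3 2.

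The table places Ndufc2 (ENSRNOG00000012383) on the plus strand of chromosome 1, from 162369801 to 162376023, in coordinates whose build is not given in the sources used here. The nearest tested gene before it, Alg8, a glucosyltransferase of protein glycosylation on the same strand, measured 5.53 ± 1.06 FPKM in siNC and 5.39 ± 0.256 FPKM in siMettl3 (limma adjusted p = 0.928). The nearest tested gene after it, Kctd14, a gene of the potassium channel tetramerization domain family on the same strand, moved the other way. It measured 2.97, 3.57 and 2.88 FPKM in siNC against 5.46, 5.24 and 5.53 FPKM in siMettl3. Limma gave it a log2 fold change of 0.63 (SE 0.086, adjusted p = 0.0107; edgeR adjusted p = 0.0135), and it did not pass without siNC replicate 1 (0.0537) or siMettl3 replicate 1 (0.0568). Both neighbours were looked up only because they flank Ndufc2.

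Apart from Ndufc2, the nuclear genes of complex I had a median log2 fold change of -0.07, with 26 of 33 below 0. Without siMettl3 replicate 2 the median was 0.03, with 14 of 33 below 0. Of all 13105 tested genes 4754 were below 0, and 4567 without that library. The matrix arm carries the NADH site and the iron-sulfur chain. Its flavoprotein subunit Ndufv1 measured 167 to 168 FPKM in 2 of the siNC libraries and 157 in the other, and 154 to 162 FPKM in siMettl3 (log2 fold change -0.05, SE 0.053, adjusted p = 0.51). Its largest subunit, Ndufs1, measured 149, 149 and 148 FPKM in siNC and 152, 154 and 157 FPKM in siMettl3. The siMettl3 libraries were all higher, but their mean was 103.6% of the siNC mean, and the test was not passed (0.05, SE 0.0451, adjusted p = 0.473), with a sign that turned by edgeR (-0.02).

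Of the membrane-arm accessory subunits, Ndufa1 had the lowest log2 fold change after Ndufc2. Its levels were 215, 218 and 166 FPKM in siNC and 180, 118 and 184 FPKM in siMettl3, so that the groups overlapped (-0.33, SE 0.19, adjusted p = 0.278). Ndufb9 measured 330, 351 and 291 FPKM in siNC and 283, 235 and 298 FPKM in siMettl3 (-0.25, SE 0.111, limma adjusted p = 0.17). It was also the nuclear complex I gene of the highest mean, ahead of Ndufb8 and Ndufb4. Of these genes Ndufb9 alone was called by any alternative, lower by DESeq2 (adjusted p = 0.0299) and with a length correction (0.0484). At the other end of the complex, Ndufc1 had the highest log2 fold change.

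Complex II, which oxidizes succinate and has no mitochondrially encoded subunit, had no call. Its flavoprotein Sdha measured 215, 210 and 197 FPKM in siNC and 217, 207 and 212 FPKM in siMettl3 (log2 fold change 0.03, SE 0.0554, adjusted p = 0.726). Sdhd, a membrane anchor, had the lowest value of the 4 genes (-0.04, SE 0.0685, adjusted p = 0.723). The 95% intervals allow a ratio of 0.933 to 1.12 for Sdha and 0.869 to 1.09 for Sdhd. The median of the 4 was 0.01 by limma and -0.07 by edgeR.

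In complex III, Uqcrb, a small subunit at the ubiquinone-binding site, stood lowest among the nuclear genes. It measured 204, 209 and 186 FPKM in siNC and 163, 115 and 157 FPKM in siMettl3, without overlap, and the siMettl3 mean was 72.6% of the siNC mean. Limma gave a log2 fold change of -0.47 (SE 0.133, adjusted p = 0.0652), and by edgeR it was -0.54 (adjusted p = 0.048), so that the call depends on the test. This row is a single interval of chromosome 1 (94718402 to 94718876). All its 475 bases overlap AC120712, listed as an unprocessed pseudogene on the same strand (mean 0.30 FPKM). A second row of the symbol Uqcrb lies on chromosome 7, where RefSeq also places Uqcrb. The second row measured 74.5, 81.4 and 71.6 FPKM in siNC and 61.7, 44.2 and 65.2 FPKM in siMettl3. Limma gave it -0.42 (SE 0.144, adjusted p = 0.101) and edgeR -0.49 (adjusted p = 0.0793), so neither called it. DESeq2 did (adjusted p = 0.00771). The edgeR call of Uqcrb thus rests on the chromosome 1 row. Both rows were lower in every siMettl3 library, but near-identical copies can share reads, so the split between them is uncertain.

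The core subunits of complex III had values near 0. Uqcrc2, a core protein, measured 206, 212 and 202 FPKM in siNC and 216, 204 and 215 FPKM in siMettl3, and had the highest log2 fold change of the nuclear group (0.03, SE 0.0519, adjusted p = 0.70). Uqcrh, the hinge protein and the most abundant of the group by FPKM, measured 556, 590 and 543 FPKM in siNC and 567, 422 and 554 FPKM in siMettl3 (-0.14, SE 0.12, adjusted p = 0.449). In Uqcrh a single library, siMettl3 2, lay below all the others.

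Mt-cyb, the cytochrome b of complex III and its only mitochondrially encoded subunit, was lower in all siMettl3 libraries. It measured 12893, 14178 and 13405 FPKM in siNC and 11739, 10730 and 11184 FPKM in siMettl3, or 83.1% of the siNC mean. Limma gave a log2 fold change of -0.27 (SE 0.147, adjusted p = 0.258) and edgeR -0.34 (adjusted p = 0.0285). Against Mt-nd5, a gene of the same strand, Mt-cyb stood at a ratio of 3.25 to 3.77 in siNC and 2.87 to 3.14 in siMettl3. The 2 named lower values of complex III thus come from 1 gene of each genome, and in neither did limma make a call.

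Complex IV reduces oxygen, and its nuclear subunits exist in alternative forms. Cox4i1, the regulatory subunit and the most abundant gene of the group, measured 864, 886 and 743 FPKM in siNC and 788, 611 and 793 FPKM in siMettl3 (log2 fold change -0.19, SE 0.126, adjusted p = 0.339). Cox7a2l2 had the lowest value: 463, 499 and 387 FPKM against 399, 305 and 412 FPKM (-0.28, SE 0.143, adjusted p = 0.232). The table places Cox7a2l2 on chromosome 8, where RefSeq lists Cox7a2, the widely expressed form of subunit 7a. Of the 15 tested nuclear genes of complex IV, 13 were below 0 by limma and none was called. Without siMettl3 replicate 2, 7 of the 15 were below 0. Of all 13105 tested genes these counts were 4754 and 4567.

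The heart and muscle form of subunit 6a, Cox6a2, was close in level to the liver form Cox6a1. Its level was 706, 764 and 621 FPKM in siNC and 749, 595 and 784 FPKM in siMettl3, the highest log2 fold change of the group (0.02, SE 0.128, adjusted p = 0.929, and -0.05 by edgeR). Its share of the Cox6a1 and Cox6a2 sum was 52.3%, 53.0% and 53.7% in siNC and 54.1%, 54.8% and 54.97% in siMettl3. These shares did not overlap, although they differed by little and neither gene passed the test. For subunit 8, the muscle form Cox8b held 11.6% to 13.3% of its pair in siNC and 10.1% to 12.8% in siMettl3.

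The other alternative forms were scarce in both groups. Cox4i2, the form known from lung and low oxygen, held 0.342% to 0.363% of the Cox4i1 and Cox4i2 sum in siNC and 0.335% to 0.493% in siMettl3. Cox6b2, the testis form, held 1.29% to 1.39% in siNC and 0.87% to 1.49% in siMettl3, and Ndufa4l2 held 0.177% to 0.307% and 0.183% to 0.273% of its pair with Ndufa4. For Cox7a1 and Cox7a2 no share was formed, since the table holds no gene under the symbol Cox7a2. Cox7a1 itself was at 0.079 to 0.233 FPKM.

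All 16 tested nuclear genes of ATP synthase had a log2 fold change below 0, from -0.30 to -0.01, and none was called. Without siMettl3 replicate 2, 7 of the 16 were below 0. Of all 13105 tested genes 4754 were below 0, and 4567 without that library. Atp5f1b, the catalytic beta subunit and the most abundant nuclear gene of the whole chain, measured 1635, 1643 and 1503 FPKM in siNC and 1538, 1394 and 1552 FPKM in siMettl3 (-0.09, SE 0.0856, adjusted p = 0.492). Atp5f1a, the alpha subunit, had the highest value (-0.01, SE 0.0673, adjusted p = 0.95), with a ratio of 0.89 to 1.11 in its 95% interval. Atp5mg, the g subunit of the membrane part, had the lowest: 734, 786 and 641 FPKM in siNC and 641, 463 and 660 FPKM in siMettl3 (-0.30, SE 0.151, adjusted p = 0.217). In Atp5mg the highest siMettl3 library was above the lowest siNC library.

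The c-ring of ATP synthase is built from identical proteins encoded by 3 genes, and their proportions stayed close. Atp5mc3 supplied 45.5% to 48.7% of the summed FPKM in siNC and 45.8% to 50.02% in siMettl3. Atp5mc2 supplied 30.5% to 33.7% and 29.1% to 33.4%, and Atp5mc1 19.7% to 20.8% and 20.8% to 22.0%. The ranges of each gene met or overlapped between the groups. Of the associated genes, Atp5if1 measured 284 ± 21.3 and 301 ± 25.3 FPKM (0.08, adjusted p = 0.552) and Cox7a2l 90.0 ± 8.77 and 77.5 ± 6.24 FPKM (-0.21, adjusted p = 0.163).

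Although Ndufc2 alone of the nuclear genes passed by limma, the nuclear genes moved together from library to library. Their median FPKM was 199, 206 and 173 in siNC 1, 2 and 3 and 190, 157 and 193 in siMettl3 1, 2 and 3. The library siMettl3 2 was the lowest of the 6 for 68 of the 80 genes, and siNC 2 the highest for 54. Of all 13105 tested genes, siMettl3 2 was the lowest for 2568 and siNC 2 the highest for 2167. The spread within a group was thus wider than the difference between the groups, as siNC 3 lay below siMettl3 1 and siMettl3 3. In siNC 3, 75 of the 80 genes were below their own mean, and in siMettl3 2, 77 were. Of all 13105 tested genes these counts were 7954 and 5524.

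**Figure D3:**
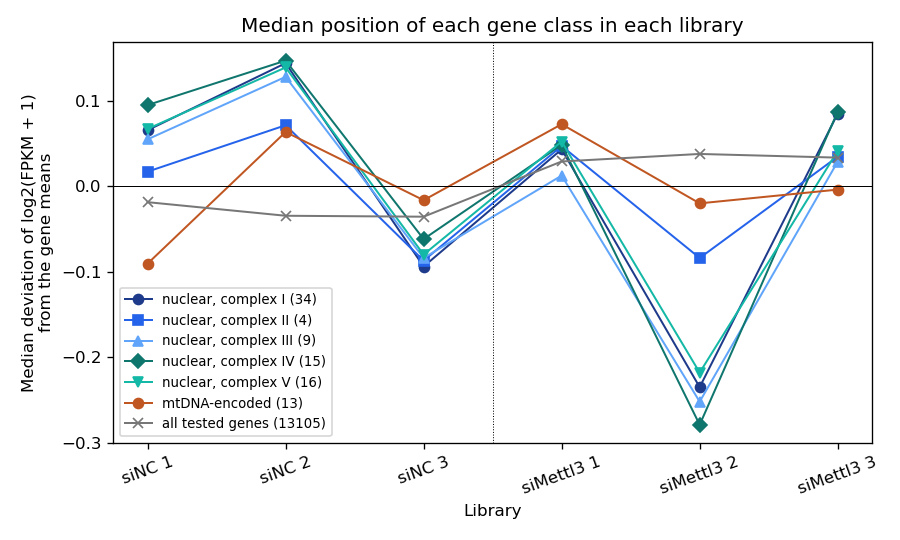
For each class and library the vertical axis gives the median, over the genes of the class (number in brackets), of log2(FPKM + 1) minus the gene's mean over the 6 libraries. The nuclear classes of complexes I, III, IV and V run together, from up to 0.15 in siNC 2 to -0.28 in siMettl3 2 (both complex IV). Complex II moves less, with 0.07 in siNC 2, -0.08 in siMettl3 2 and -0.09 in siNC 3. The mitochondrial genes and all tested genes do not follow the nuclear classes.

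The group median of the nuclear genes changed with the libraries kept. The median log2 fold change of the 80 genes was -0.07, with 66 below 0, against 0.07 over all 13105 tested genes, with 4754 below 0. By edgeR it was -0.14, with 77 below 0, against 0.00, with 6490 below 0. Without siMettl3 replicate 2 the limma median was 0.02, with 35 of 80 below 0. That of all tested genes was then 0.07, with 4567 below 0. The nuclear median was -0.02 without siNC replicate 2 (51 below 0) and -0.14 without siNC replicate 3. Leaving out siMettl3 replicate 1 gave -0.12, and leaving out siMettl3 replicate 3 gave -0.13. With quantile normalization it was -0.01 (46 below 0). Medians by complex were -0.08 (I), 0.01 (II), -0.07 (III), -0.10 (IV) and -0.06 (V), and without siMettl3 replicate 2 they were 0.02, 0.05, -0.01, 0.02 and 0.00.

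The position of siMettl3 2 also varied with transcript length, here the effective length given by the ratio of counts to FPKM. For the 22 nuclear genes under 500 bases, the median deviation from the gene means was -0.35 in siMettl3 2 and 0.16 in siNC 2. For the 12 genes of 1500 to 2500 bases it was -0.09 and 0.06. Among all tested genes the same libraries ran in the same directions, from -0.11 and 0.08 under 500 bases to 0.11 and -0.10 at 2500 bases or more. The 3 nuclear genes of 2500 bases or more stayed at -0.13 and 0.08, opposite in sign to all genes of that length. The nuclear respiratory genes are short, with a median of 714 bases against 2306 for all tested genes. After each library was corrected for length, an alternative chosen after seeing the data, the median log2 fold change of the 80 genes was -0.06, with 63 below 0, against 0.01 over all tested genes. Ndufc2, of 576 bases, was at -0.93 in that fit (limma adjusted p = 0.00124).

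**Figure D4:**
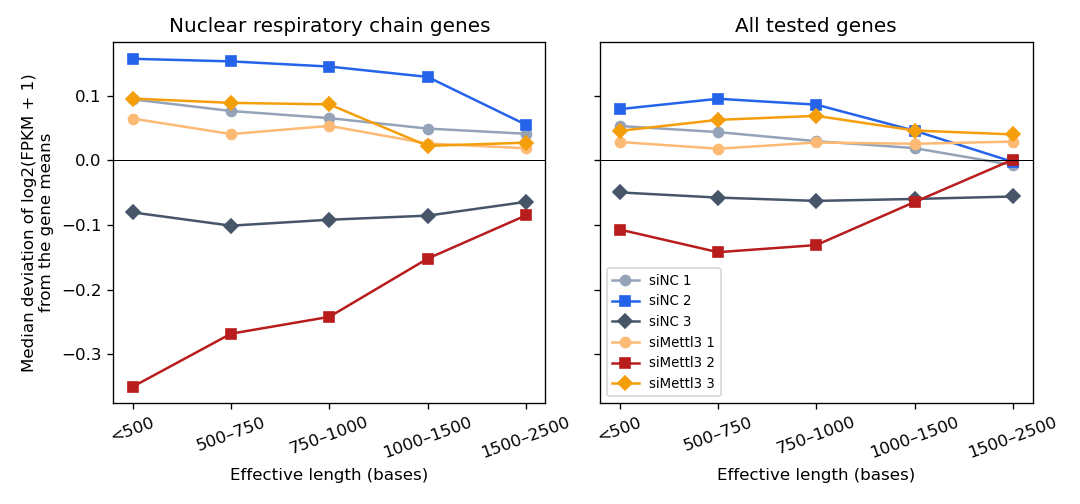
The horizontal axis groups genes by effective length in bases, and the vertical axis is the median deviation of log2(FPKM + 1) from the gene means in each library. Nuclear respiratory genes are on the left (12 or 9 genes in the 3 longer bins, 22 in each of the 2 shorter ones; genes of 2500 bases or more are not drawn), all tested genes on the right. Library siMettl3 2 is lowest among short genes in both panels, at -0.35 on the left and -0.11 on the right under 500 bases.

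The 13 genes of the mitochondrial genome are transcribed as long precursors that are then cut into single RNAs, so their levels differ by later steps as well as by strand. Mt-co1, the catalytic subunit of complex IV, was the most abundant, at 32860, 36828 and 37949 FPKM in siNC and 35868, 36371 and 35817 FPKM in siMettl3 (log2 fold change 0.01, SE 0.218, adjusted p = 0.984). It was followed by Mt-co3 (mean of 6 libraries 15510 ± 1763 FPKM), Mt-cyb (12350 ± 1349) and Mt-nd2 (7151 ± 453.1). The ranges of Mt-co3 and Mt-cyb over the 6 libraries overlapped, and those of the other steps among these genes did not.

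Below Mt-nd2 came a run of genes whose neighbours in level overlapped: Mt-nd4l, Mt-co2, Mt-nd4, Mt-nd1, Mt-atp8, Mt-nd5, Mt-nd3 and Mt-nd6, from a mean of 5245 down to 3289 FPKM. Mt-atp6, the channel subunit of ATP synthase, was lowest at 2100 ± 87.6 FPKM, apart from the rest. Several of these genes overlap on the chromosome, Mt-atp8 with Mt-atp6 by 43 bases, Mt-nd4l with Mt-nd4 by 7 and Mt-nd5 with Mt-nd6, on the opposite strand, by 23. The first 2 pairs are known as joint messengers. Reads that fall in an overlap or span it cannot be assigned to 1 gene, so these levels are uncertain to that extent.

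**Figure D5:**
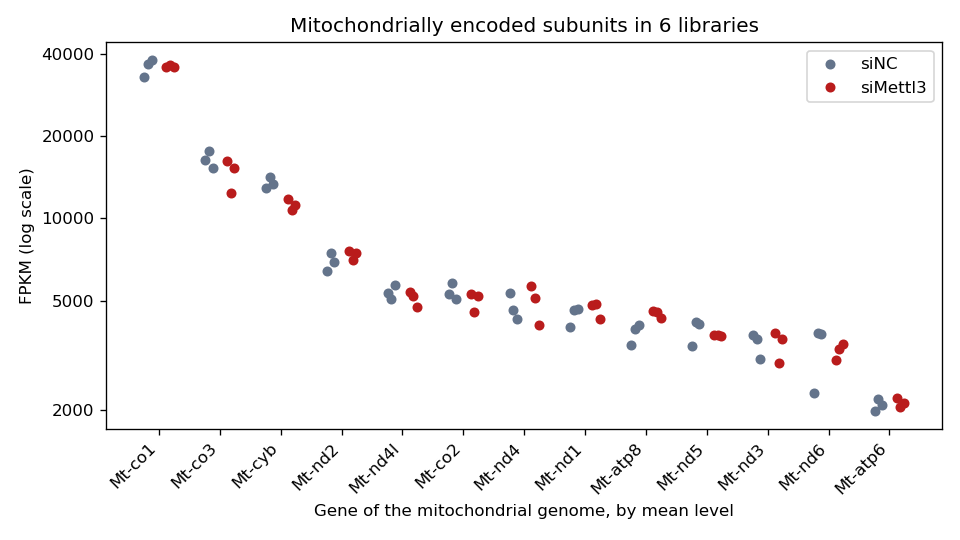
Points give the FPKM (log scale) of the 13 mitochondrially encoded genes in the 3 siNC (grey) and 3 siMettl3 (red) libraries, ordered by mean level. Mt-co1 is at a mean of 35950 FPKM and Mt-atp6 at 2100 FPKM. The groups are apart in Mt-cyb, where siMettl3 is lower, and in Mt-atp8, where it is higher.

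None of the 13 was called by limma, where the median log2 fold change was 0.01 with 7 above 0, and by edgeR the median was -0.08 with 11 below 0. Mt-atp8, a small subunit of ATP synthase, was higher in all siMettl3 libraries. It measured 3436, 3954 and 4089 FPKM in siNC and 4583, 4545 and 4326 FPKM in siMettl3 (0.23, SE 0.114, limma adjusted p = 0.211, edgeR adjusted p = 0.256). In its overlapping neighbour Mt-atp6 the groups overlapped, with 1971, 2182 and 2072 FPKM in siNC and 2207, 2051 and 2117 FPKM in siMettl3 (0.04, SE 0.086, adjusted p = 0.806). The ratio of Mt-atp8 to Mt-atp6 was 1.74 to 1.97 in siNC and 2.04 to 2.22 in siMettl3.

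The remaining complex IV genes of the mitochondrial genome overlapped between the groups. Mt-co3 measured 16372, 17582 and 15252 FPKM in siNC and 16221, 12365 and 15298 FPKM in siMettl3 (-0.17, SE 0.184, adjusted p = 0.553). The low value was again in siMettl3 2. Mt-co2, which takes up electrons from cytochrome c, measured 5292, 5806 and 5055 FPKM in siNC and 5273, 4531 and 5196 FPKM in siMettl3 (-0.11, SE 0.124, adjusted p = 0.585).

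The 7 complex I genes of the mitochondrial genome encode the core of its membrane arm. Their log2 fold changes ran from -0.07 (Mt-nd4l, 5070 to 5716 FPKM in siNC and 4756 to 5371 in siMettl3) to 0.09 (Mt-nd2, 6397 to 7460 and 7041 to 7591), with adjusted p from 0.656 to 0.965. Mt-nd1 ranged from 4015 to 4667 FPKM in siNC and 4272 to 4884 in siMettl3, and Mt-nd4 from 4289 to 5347 and 4095 to 5660. In each of these the groups overlapped. Mt-nd5 ranged from 3421 to 4183 FPKM and 3720 to 3743, and Mt-nd3 from 3065 to 3755 and 2959 to 3800. Mt-nd6, the sole gene of the set on the minus strand, ranged from 2304 to 3810 FPKM in siNC and from 3042 to 3461 in siMettl3, with siNC 1 below the other libraries. In Mt-nd5 and Mt-nd6 the siMettl3 libraries lay within the siNC range.

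The 2 ribosomal RNAs of the mitochondrial chromosome, which are no members, rose. The smaller one (ENSRNOG00000030478, positions 68 to 1025) measured 1283, 1275 and 1189 FPKM in siNC and 2154, 1715 and 1849 FPKM in siMettl3 (0.60, SE 0.105, limma adjusted p = 0.0212, edgeR adjusted p = 0.0163). The larger one (ENSRNOG00000043866, positions 1094 to 2664) measured 1030, 1054 and 1125 FPKM in siNC and 1629, 1480 and 1529 FPKM in siMettl3 (0.53, SE 0.0788, limma adjusted p = 0.0143, edgeR adjusted p = 0.00962). Together they made 0.293% to 0.299% of counts in siNC and 0.409% to 0.476% in siMettl3. The step that selects or removes ribosomal RNA is not given in the sources used here, and its part was not tested. With single libraries left out the smaller one passed in 1 of 6 fits and the larger one in 3 of 6.

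The sum of the mitochondrial genes over that of the nuclear genes, in FPKM, was 4.87, 5.12 and 5.80 in siNC and 5.32, 6.04 and 5.01 in siMettl3. The groups overlapped, with the highest ratios in siNC 3 and siMettl3 2, the libraries where the nuclear genes were low. In median log2 fold change the nuclear genes stood at -0.07 and the mitochondrial genes at 0.01.

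Few of the genes that build the complexes were called. Of all tested genes, the scale for this list and those below, limma called 10.9% in either direction and edgeR 9.98%. Of 51 tested assembly factors that are no members 2 rose and none fell by limma: Uqcc1, a factor for cytochrome b of complex III, from 23.7 ± 0.596 to 27.4 ± 0.651 FPKM (log2 fold change 0.20, adjusted p = 0.0436), and Coa7, a factor of complex IV, from 4.46 ± 0.112 to 5.63 ± 0.294 FPKM (0.28, adjusted p = 0.046). By edgeR neither was called (adjusted p = 0.135 and 0.0848) and 1 other, Sco1, a copper chaperone of complex IV, was lower (-0.31, adjusted p = 0.0303; -0.22 and 0.0519 by limma). With any 1 library left out neither Uqcc1 nor Coa7 passed by limma (0.0698 to 0.14 for Uqcc1 and 0.0775 to 0.126 for Coa7). Among the 17 assembly factors of complex I and the 4 of complex V none was called, with medians of 0.04 and -0.02. Of 10 subunits and carriers that the names do not cover, such as the acyl carrier Ndufab1, cytochrome c (Cycs) and the adenine nucleotide carrier Slc25a4, none was called (median -0.02).

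Among 13 genes of coenzyme Q synthesis, which makes the electron carrier between complexes I, II and III, 1 rose. This was Coq8a, a kinase-like protein of the pathway, from 24.8 ± 0.835 to 31.2 ± 1.18 FPKM (0.32, limma adjusted p = 0.0194, edgeR adjusted p = 0.0291). Of 35 genes that copy, transcribe and handle mitochondrial nucleic acids, Pnpt1, an RNA-degrading nuclease of mitochondria, fell from 52.5 ± 1.0 to 40.1 ± 4.31 FPKM (-0.39, limma adjusted p = 0.0305, edgeR adjusted p = 0.0166). Polg, the mitochondrial DNA polymerase, rose from 11.4 ± 0.485 to 13.8 ± 0.755 FPKM (0.26, limma adjusted p = 0.0475) and was not called by edgeR (0.0879). With 1 library left out the limma adjusted p ran from 0.0452 to 0.0696 for Coq8a, from 0.0209 to 0.101 for Pnpt1 and from 0.0635 to 0.134 for Polg. Tfam, which packages and transcribes the mitochondrial genome, measured 29.9 ± 0.224 and 29.0 ± 3.16 FPKM (adjusted p = 0.694).

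Of 19 tested regulators of respiratory gene transcription, 2 rose and 1 fell, where limma called 10.9% of all tested genes. The nuclear receptors Esrrg (18.4 ± 1.45 to 24.0 ± 1.32 FPKM, 0.36, limma adjusted p = 0.0295, edgeR adjusted p = 0.0438) and Ppard (8.44 ± 0.263 to 11.0 ± 0.585 FPKM, 0.35, limma adjusted p = 0.0219, edgeR adjusted p = 0.0244) rose. Perm1, a muscle regulator induced by the PGC-1 coactivators, fell from 2.15 ± 0.12 to 1.33 ± 0.0248 FPKM (-0.43, limma adjusted p = 0.0257, edgeR adjusted p = 0.0072). With 1 library left out the limma adjusted p ran from 0.036 to 0.0989 for Esrrg, from 0.0434 to 0.0856 for Ppard and from 0.0565 to 0.0969 for Perm1. Ppargc1a, the coactivator PGC-1 alpha, measured 8.60 ± 1.64 and 7.30 ± 1.91 FPKM (adjusted p = 0.44).

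Upstream of the chain, 2 of 19 tested genes of the tricarboxylic acid cycle and pyruvate dehydrogenase fell and 1 rose by limma, and 4 fell and none rose by edgeR. Pdha1, the catalytic alpha subunit of pyruvate dehydrogenase, fell from 247.2 ± 9.12 to 203 ± 14.04 FPKM (-0.28, limma adjusted p = 0.044, edgeR adjusted p = 0.0218). Dld, the dihydrolipoamide dehydrogenase shared by several dehydrogenase complexes, fell from 66.9 ± 0.972 to 53.6 ± 2.55 FPKM (-0.31, limma adjusted p = 0.0186, edgeR adjusted p = 0.00847). Pdk2, a kinase that inhibits pyruvate dehydrogenase, rose from 27.7 ± 0.729 to 34.3 ± 1.18 FPKM (0.30, limma adjusted p = 0.02, edgeR adjusted p = 0.0524). The falls by edgeR alone were those of the isocitrate dehydrogenases Idh3a (-0.20, adjusted p = 0.0453) and Idh2 (-0.22, adjusted p = 0.0487). None of the 12 outer membrane and import genes was called. Over all 159 tested genes of these lists, limma called 7 higher and 4 lower and edgeR 3 and 8. Among all 13105 tested genes limma called 1432 (10.9%) and edgeR 1308 (9.98%). With 1 library left out the limma adjusted p ran from 0.0672 to 0.146 for Pdha1, from 0.0431 to 0.0849 for Dld and from 0.0385 to 0.084 for Pdk2.

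Some rows of the table are uncertain for reasons of annotation. The symbol Ndufs6 belongs here to a processed pseudogene, and the rows for the likely coding copies carry locus names that the choice by symbol does not reach: LOC100912599 measured 76.5 ± 3.24 and 76.8 ± 12.0 FPKM and LOC679739 70.9 ± 4.29 and 74.1 ± 11.5 FPKM. A row annotated like Atp5pb, LOC100911417, measured 109 ± 6.67 and 104 ± 10.8 FPKM. Second rows of Cox6b1 (151 ± 24.2 and 128 ± 20.4 FPKM) and Ndufv3 (2.83 ± 0.226 and 2.87 ± 0.604 FPKM) did not pass the test. That of Ndufa10l1 was near 0 in 4 libraries and at 5.79 and 4.90 FPKM in siMettl3 1 and 2. Atp5md is a single interval of 308 bases within Wnk4 on the opposite strand. Several of these rows are near-identical copies of a member, and how reads were shared among them is not given in the sources used here.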

How the data were processed

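Messenger RNA was measured by paired-end Illumina sequencing in 6 libraries, 3 siNC and 3 siMettl3. Per the file headers, the authors deposited 1 table with FPKM and counts for each library and gene, and 0.0001 FPKM stands where the count is 0. The deposited counts are whole numbers and proportional to FPKM within a gene, so they may not be raw reads. The submitters' processing notes name Bowtie 0.12.2 and a mouse build with no role, and the rat build of the table is not given in the sources used here.

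Values were tested as log2(FPKM + 1), for genes whose mean reached 1 FPKM, with limma 3.58.1 (moderated, with trend, 2-sided) in R 4.3.3, with Benjamini-Hochberg adjustment over all 13105 genes at 0.05. Fold changes on this scale understate those of low genes. edgeR 4.0.16 (quasi-likelihood, TMM) and DESeq2 1.42.0 were run on the counts as alternatives, since the main test had been fixed for FPKM. The scripts were tested on simulated data. Errors beside group means are SDs (n = 3).

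Named were all mitochondrial members, nuclear members past the threshold, the most abundant and the extreme members of each complex, the isoform pairs, and up to 4 called genes of each other list. Ndufv1, Ndufs1, Tfam, Ppargc1a, Sco1, Idh2, Idh3a, the neighbours of Ndufc2 and the mitochondrial ribosomal RNAs were named after their values were seen. The members and lists were chosen with earlier results of these data known, and of the 169 list entries other than markers and members 160 were found; the rest were not analysed here. Alternatives covered scaling, filter, pseudocount, test, replicate block, rows per symbol and each library left out. No protein sequences or genome were used here.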

Additional observations from a re-analysis of the deposited data

How the results depend on the processing

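The number of members called was 1 by limma, 3 with quantile normalization (Atp5if1 higher, Ndufc2 and Uqcrb lower), 3 by edgeR, 5 by DESeq2 (Ndufc2, Uqcrb, Mt-cyb, Ndufb9 and Cox7a2l lower) and 3 with the length correction (Ndufc2, Uqcrb and Ndufb9 lower). Over all 13105 genes these fits called 1432, 1221, 1308, 2394 and 1900. For nuclear members these counts were 1, 3, 2, 4 and 3, and for mitochondrial members 0, 0, 1, 1 and 0. In complex I, 2 were called by DESeq2 and with the length correction, and in complex III 1 with quantile normalization and with the length correction and 2 by edgeR and DESeq2. With the replicate block 0 members, 0 nuclear members and 0 of complex I were called, and Ndufc2 kept a log2 fold change of -0.98. Deviations of same-numbered libraries from their group means correlated at 0.03, -0.26 and -0.12 across genes. Not every library correlated best with its own number. Deviations within a group sum to 0 for each gene, so these values cannot decide whether the numbers pair the libraries. Leaving out each library in turn left 1 member called, Ndufc2, each time. The median of the mitochondrial members was -0.0631 with median-ratio scaling, -0.0826 by edgeR and -0.0791 by DESeq2, and that of all tested genes moved to 0.01, 0.00 and 0.01 in those fits. No called member was reversed in 17 alternatives, and uncalled signs changed in 167 of 1580 pairs of member and alternative. The cause of these changes was not tested. Cox7b2, Cox8c and Cox6c-ps1 are too low for a comparison.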
